A study of Mus musculus with 6 samples.

Results

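The 10 genes described here encode the hormones that a beta cell packs into its granules and the proteins that mature them: Ins1, Ins2, Iapp, Pcsk1, Pcsk2, Cpe, Pcsk1n, Scg5, Furin and Pam. They were chosen by name for this function, and all 10 were found among the 55487 genes of the count table. RNA was sequenced from MIN6, a mouse insulin-secreting cell line, grown to confluency in 6-well plates and transfected transiently by Lipofectamine. The 3 PTHrP libraries received a plasmid for full-length parathyroid hormone-related protein (PTHrP) and the 3 DsRed libraries the vector for the red fluorescent protein DsRed, and RNA was taken at most 3 days later. The share of cells that took up a plasmid is not given in the sources used here, and no untransfected library was analysed here. The libraries held 84427033 to 94613684 counts each, and 21141 genes, all 10 members among them, had enough counts to be tested.

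Insulin is made as preproinsulin, which loses a signal peptide in the endoplasmic reticulum and is then cut at pairs of basic residues inside the acidic granule. The prohormone convertases PC1/3 (Pcsk1) and PC2 (Pcsk2) make these cuts, and carboxypeptidase E (Cpe) trims the basic residues that remain. Amylin (Iapp), the other major peptide of the beta cell granule, passes the same enzymes and is then amidated by Pam. The mouse has a pair of insulin genes, Ins1 and Ins2. PTHrP is itself a secreted protein made through a precursor, and its receptor PTH1R raises cAMP.

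The labels were checked on the transfected gene, and the cell type on markers. Pthlh, which encodes PTHrP, was counted 697, 553 and 797 times after PTHrP transfection and 0, 4 and 8 times after DsRed transfection. In CPM (counts scaled to library size with TMM factors) that is 8.10, 6.50 and 8.37 in PTHrP and at most 0.0874 in DsRed. The transfected gene was thus counted at a lower level than any of the members. All 8 beta cell markers examined (Ins1, Ins2, Iapp, Pdx1, Nkx6-1, Mafa, Slc2a2 and Neurod1) had counts in every library. Their summed level was 47520 to 53970 CPM in PTHrP and 48980 to 60980 CPM in DsRed. Most of that sum came from Ins2, so it is not independent of the members. The exocrine, fibroblast, and immune and endothelial lists reached at most 2.51, 4.96 and 4.26 CPM in any library. Ppy and Ghrl, the markers of PP and epsilon cells, reached at most 0.188 CPM together. The alpha cell list summed to 324 to 412 CPM, nearly all from Gcg and Ttr. The delta cell list summed to 43.4 to 59.4 CPM, nearly all from Rbp4, with Sst at no more than 0.139 CPM. In bulk RNA, fewer cells of a type and less RNA per cell cannot be told apart.

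In GENCODE M21 on GRCm38 all 10 are protein-coding genes at separate loci. The hormone genes are Ins1 on chromosome 19 at 52264297 to 52265476, Ins2 on chromosome 7 at 142678656 to 142743381 and Iapp on chromosome 6 at 142298423 to 142303961. The convertase genes are Pcsk1 on chromosome 13 at 75089826 to 75134861, Pcsk2 on chromosome 2 at 143546156 to 143816285 and Furin on chromosome 7 at 80388585 to 80405436. The partners of the convertases are encoded by Pcsk1n on chromosome X at 7919822 to 7924410 and Scg5 on chromosome 2 at 113776362 to 113829121, and the enzymes that finish the cut peptides by Cpe on chromosome 8 at 64592542 to 64693054 and Pam on chromosome 1 at 97795114 to 98095646.

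The sites where the convertases act can be read in the coding sequences. The lines below show 60 bases of each GENCODE transcript around each in-frame pair of codons for basic residues, with the pair in capitals, because these are the substrates of the enzymes measured here. Counted without overlap from the start codon, both insulin transcripts and the Iapp transcript held 2 such pairs. The first Iapp pair is followed directly by another basic codon, aag, which was not counted as a further pair.
Ins1 pair 1: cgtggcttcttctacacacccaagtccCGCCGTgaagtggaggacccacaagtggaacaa
Ins2 pair 1: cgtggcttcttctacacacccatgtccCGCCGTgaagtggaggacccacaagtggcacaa
Ins1 pair 2: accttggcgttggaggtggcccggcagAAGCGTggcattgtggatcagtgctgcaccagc
Ins2 pair 2: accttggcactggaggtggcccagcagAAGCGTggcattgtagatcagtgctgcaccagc
Iapp pair 1: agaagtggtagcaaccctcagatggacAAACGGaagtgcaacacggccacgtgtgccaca
Iapp pair 2: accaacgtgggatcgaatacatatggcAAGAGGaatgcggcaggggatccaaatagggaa

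In both insulin genes the pairs carried the same codons, CGC with CGT and AAG with CGT. The pairs are the junctions of the B chain with the C-peptide and of the C-peptide with the A chain. In Iapp the codon just before pair 2, ggc, is a glycine codon, the residue from which Pam makes the amide. The Ins1 and Ins2 coding sequences, 327 and 333 bases long, were identical at 302 of 333 aligned positions (90.7%), and the longest unbroken identical run was 56 bases. Counted as windows of 50 bases over all annotated transcripts, 7 of 1013 windows of Ins1 (0.691%) and 7 of 1504 of Ins2 (0.465%) occurred in the other gene, and none of either occurred in any further gene. The copies are thus similar along the coding part but separable at nearly all positions for reads of that length. Neither the read length nor the rule for reads with several matches is stated in the labels.

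None of the 10 genes passed the test between PTHrP and DsRed (edgeR quasi-likelihood test, threshold of 0.05 on the adjusted p), and neither DESeq2 nor limma-voom called any. Over all 21141 genes 0.0426% passed. At an unadjusted p under 0.05 there was 1 member, Pcsk1, against 8.90% of all genes, and it was also the only member whose groups did not overlap, against 16.3% of all genes. These shares of 1 in 10 are near the background. Fold changes were positive in 5 members and negative in 5, with a median of -0.01 on the log2 scale beside -0.01 over all genes.

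**Figure D1:**
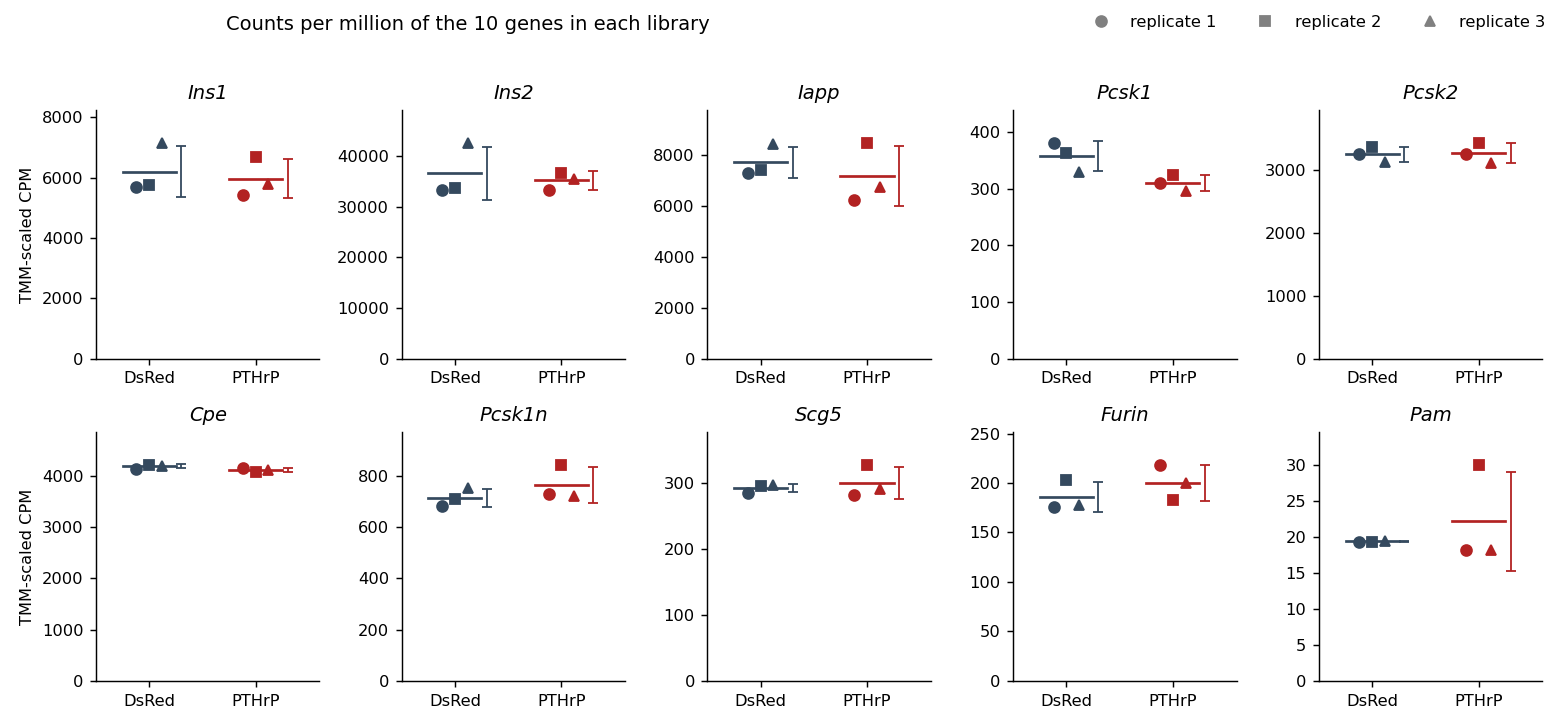
TMM-scaled CPM (vertical axis, from 0) of each of the 10 genes in the DsRed (dark) and PTHrP (red) libraries; symbols are libraries by replicate number, horizontal lines are group means and bars are 1 SD (n = 3). Pcsk1 is the gene whose PTHrP libraries, at 296 to 324 CPM, all lie under the DsRed libraries at 329 to 381 CPM, while Pam is set apart only in PTHrP replicate 2.

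Ins2, the more abundant insulin gene, had 33253, 36769 and 35573 CPM in PTHrP replicates 1, 2 and 3 and 33306, 33746 and 42676 CPM in the DsRed replicates. DsRed replicate 3 was the highest library and the other 5 lay close together, so the groups overlapped. Its log2 fold change was -0.06 with a 95% interval of -0.26 to 0.15 (edgeR quasi-likelihood test, adjusted p = 0.905). On the linear scale that interval runs from 0.835 to 1.11 times the DsRed level.

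Ins1, the second insulin gene, had 5434, 6674 and 5794 CPM in PTHrP and 5688, 5744 and 7165 CPM in DsRed. PTHrP replicate 2 and DsRed replicate 3 were its high libraries, 1 in each group. Its log2 fold change was -0.05, with an interval of -0.29 to 0.18 (adjusted p = 0.916). Without DsRed replicate 3 the log2 fold changes were 0.06 for Ins1 and 0.07 for Ins2, so both signs changed when that library was left out. The sign of Ins1 also changed without PTHrP replicate 1, to 0.007.

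Iapp, the amylin gene, had 6254, 8495 and 6769 CPM in PTHrP and 7310, 7409 and 8432 CPM in DsRed. PTHrP replicate 2 again stood with DsRed replicate 3 at the top, and the other PTHrP libraries lay under all DsRed libraries. This gave a log2 fold change of -0.11 (interval -0.36 to 0.15, adjusted p = 0.841). Without PTHrP replicate 2 it was -0.24 with an adjusted p of 0.0605 (edgeR), and without PTHrP replicate 1 it was -0.02.

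Ins1 followed both Ins2 and Iapp from library to library. All genes of a library share its depth and scaling. Over the 6 libraries, Pearson's r of log2 CPM was 0.932 for Ins1 with Ins2 and 0.897 for Iapp with Ins1. It was 0.702 for Iapp with Ins2, below the 0.77 of Iapp with Scg5. Such r values were not particular to the hormone genes. The highest of all member pairs was 0.948, for Pam with Scg5, and Scg5 with Pcsk1n had 0.894. These are given as descriptions. The upstream sequence of Ins1 and Iapp is shown as a description too, from RefSeq on GRCm38.p6 and cut before the earliest annotated start. Ins2 has no entry among these sequences. Capitals mark the letters TAAT, the core bound by homeodomain factors such as Pdx1, and CANNTG, the E-box bound by factors such as Neurod1, on either strand.
Ins1 upstream, chr19:52264047-52264296, plus strand: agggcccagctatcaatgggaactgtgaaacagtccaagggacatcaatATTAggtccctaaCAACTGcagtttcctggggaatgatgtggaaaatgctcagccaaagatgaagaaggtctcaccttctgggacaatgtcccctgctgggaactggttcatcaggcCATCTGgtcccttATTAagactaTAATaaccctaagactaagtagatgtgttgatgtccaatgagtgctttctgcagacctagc
Iapp upstream, chr6:142298175-142298422, plus strand: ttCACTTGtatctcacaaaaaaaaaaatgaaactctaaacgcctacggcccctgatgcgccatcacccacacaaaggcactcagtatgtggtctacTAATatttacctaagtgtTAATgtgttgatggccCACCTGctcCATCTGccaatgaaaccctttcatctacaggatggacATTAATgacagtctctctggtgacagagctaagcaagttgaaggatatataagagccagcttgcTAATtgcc

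In the 250 bases before the RefSeq start, Ins1 held 3 matches of TAAT and 2 of CANNTG, and Iapp held 5 and 3, with 2 of the TAAT matches of Iapp overlapping each other. Both motifs are short and common: TAAT occurred in 54.9% and CANNTG in 66.2% of the 32851 upstream windows of that length in the table. Of the 8 members with an upstream entry, 6 held TAAT and 7 held CANNTG, so neither motif was particular to Ins1 and Iapp. A match describes the letters and not a bound site, and any part of the motifs in the shared pattern was not tested.

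The 3 genes most like Ins2 across the 6 libraries, among 6106 other genes whose log2 CPM averaged 5 or more, were Sct, the secretin gene (r = 0.992), Cstb, a cysteine protease inhibitor (0.988), and Ndufa4, a mitochondrial respiratory chain protein (0.982). Each was highest in DsRed replicate 3, with 161, 64.7 and 70.6 CPM there. Ins2 was highest there too, so this follows from the choice by likeness. High r values are easily found when so many genes are searched over 6 libraries.

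Pcsk1 encodes PC1/3, the convertase that makes the cut at the junction of B chain and C-peptide and acts early in the granule. It had 309, 324 and 296 CPM in PTHrP and 381, 363 and 329 CPM in DsRed, and every PTHrP library lay under every DsRed library, by 5.38 CPM at the closest pair. Its log2 fold change, -0.21 (SE 0.06, interval -0.35 to -0.07), corresponds to 0.865 times the DsRed level with an interval of 0.784 to 0.954. The unadjusted p was 0.00759 and the adjusted p 0.374 (edgeR), so the difference was not a call. With 1 library left out in turn, the value ranged from -0.27 without DsRed replicate 3 to -0.16 without DsRed replicate 1, and the adjusted p from 0.0605 without PTHrP replicate 2 to 0.949 without DsRed replicate 1.

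The region upstream of Pcsk1 is shown for the letters TGACGTCA, those of the full cAMP response element, in capitals with a further TGACG. Such a match describes letters only, and any part of PTH1R or cAMP in the Pcsk1 level was not tested.
Pcsk1 upstream, chr13:75089607-75089825, plus strand: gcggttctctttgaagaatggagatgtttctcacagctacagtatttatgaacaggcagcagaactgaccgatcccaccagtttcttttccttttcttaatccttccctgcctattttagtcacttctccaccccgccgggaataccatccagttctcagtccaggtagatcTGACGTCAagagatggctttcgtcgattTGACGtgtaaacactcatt

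The TGACGTCA match began at position -78 from the RefSeq start and read the same on both strands; each of its strands also holds TGACG. Of the 8 members with an entry in the promoter table, Pcsk1 alone held TGACGTCA, which 1.55% of all windows did, and 4 held TGACG, which 17.8% of all windows did. The genes whose pattern over the libraries was most like that of Pcsk1 were Triobp, an actin-binding protein gene (r = 0.995), Kdelr1, a receptor that returns proteins to the endoplasmic reticulum (0.989), and the adaptor gene Crk (0.985). None of the 3 passed the test, with log2 fold changes of -0.13, -0.10 and -0.09. They were picked for likeness to Pcsk1 over these same libraries, so their negative signs follow from the choice.

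Pcsk2 encodes PC2, the convertase that prefers the junction of C-peptide and A chain. It had 3256, 3434 and 3114 CPM in PTHrP and 3252, 3367 and 3119 CPM in DsRed, so the groups covered the same range. That is a log2 fold change of 0.01 with an interval of -0.11 to 0.13 (adjusted p = 0.972). Exons of Pcsk2 overlap on the opposite strand those of Pcsk2os1 over 260 bases and of Pcsk2os2 over 99, which had 1076 to 1266 and 17 to 33 counts a library against at least 280337 for Pcsk2.

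Furin, the convertase of the Golgi and the constitutive pathway that processes many precursors in most cell types, had 218, 182 and 200 CPM in PTHrP and 176, 203 and 178 CPM in DsRed. PTHrP replicate 1 was highest and PTHrP replicate 2 lay among the DsRed libraries. For Furin the log2 fold change was 0.11 (interval -0.06 to 0.28, adjusted p = 0.732), and it ran from 0.04 without PTHrP replicate 1 to 0.18 without DsRed replicate 2. Across the 6 libraries Furin had a Pearson's r of -0.791 with Iapp, -0.667 with Ins1 and -0.522 with Ins2, as a description.

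Pcsk1n encodes proSAAS, an inhibitor of PC1/3. Its levels were 729, 844 and 720 CPM in PTHrP and 681, 709 and 753 CPM in DsRed, with the PTHrP replicate 2 library at the top. The log2 fold change was 0.10 (interval -0.05 to 0.25, adjusted p = 0.725), which became 0.02 without PTHrP replicate 2. Its exons overlap those of Eras on the opposite strand over 135 bases, and Eras had 2 to 27 counts a library.

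Scg5 encodes 7B2, the chaperone that pro-PC2 needs to become active. It had 282, 328 and 292 CPM in PTHrP and 286, 295 and 298 CPM in DsRed, with 5 libraries within a narrow range and PTHrP replicate 2 above them. For Scg5 the log2 fold change was 0.04 (interval -0.10 to 0.18, adjusted p = 0.908) and -0.03 without PTHrP replicate 2.

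Cpe had 4137, 4067 and 4107 CPM in PTHrP and 4133, 4210 and 4187 CPM in DsRed, and its coefficient of variation was 0.853% in PTHrP and 0.944% in DsRed. The log2 fold change was -0.03 with an interval of -0.12 to 0.07 (adjusted p = 0.910), and it stayed between -0.03 and -0.02 with any 1 library left out.

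Pam, which amidates amylin and other peptides, was the least abundant member and the one set most apart by a single library. It had 18.2, 30.1 and 18.3 CPM in PTHrP and 19.4, 19.3 and 19.5 CPM in DsRed. The 3 DsRed libraries were nearly equal, and PTHrP replicates 1 and 3 lay just under them. For Pam the log2 fold change was 0.19 with an interval of -0.22 to 0.60 (adjusted p = 0.813), and it was -0.09 without PTHrP replicate 2. B230216N24Rik, which shares 188 bases of exon with Pam on the same strand, had 248 counts in PTHrP replicate 2 and 297 to 411 in the other libraries. Any effect of this overlap on the Pam counts was not tested.

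**Figure D2:**
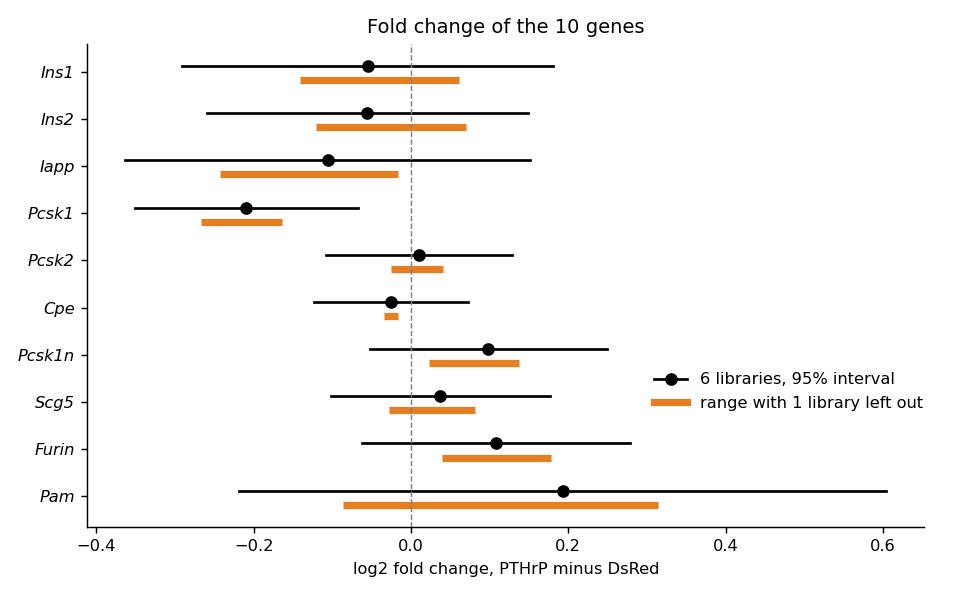
Log2 fold change of PTHrP minus DsRed (horizontal axis) for the 10 genes; black points and lines are the estimate and 95% interval from all 6 libraries, and orange bars span the estimates with 1 library left out. The interval of Pcsk1, from -0.35 to -0.07, leaves out 0 before adjustment for the genes tested, and the bars of Ins1, Ins2, Pcsk2, Scg5 and Pam cross 0.

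PTHrP replicate 2 is the library that differs most from its own group: its median absolute log2 difference from the other libraries of its group was 0.145, against 0.0706 to 0.112 in the other 5 libraries. It was the highest PTHrP library for 8 of the 10 members, Cpe and Furin being the exceptions, and DsRed replicate 3 was the highest DsRed library for 6. Mafa, a transcription factor of the insulin genes, was low in PTHrP replicate 2, at 804 CPM against 1319 to 1450 CPM elsewhere. The part of this library's other differences in the member values was not tested.

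In the order of levels per exon length, Ins2 led, with 26828 ± 1363 CPM per kilobase of exon in PTHrP and 27878 ± 4030 in DsRed (SD, n = 3), and ranked 1 of 21119 genes. Iapp (7364 ± 1206 and 7923 ± 638) ranked 3 and Ins1 (5619 ± 601 and 5837 ± 788) ranked 5, and the ranges of these neighbours overlapped over the libraries. Cpe was at 1573 ± 13.4 and 1601 ± 15.1 CPM per kilobase, rank 10.

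Below these came Pcsk2 at 413 ± 20.3 and 410 ± 15.7 CPM per kilobase, Pcsk1n at 349 ± 31.5 and 326 ± 16.5, and Scg5 at 192 ± 15.6 and 187 ± 3.90. Pcsk1 had 55.2 ± 2.50 and 63.8 ± 4.71 CPM per kilobase, rank 819, Furin 21.8 ± 1.96 and 20.2 ± 1.63, and Pam 1.87 ± 0.574 and 1.63 ± 0.00600, rank 10254. The length used is that of the merged exons of all annotated transcripts of a gene, so the values and their order depend on that annotation. Apart from Iapp and Ins1, no neighbours in this order had ranges that overlapped over the libraries. The transcript of PC2 was thus present at a higher level per length than that of PC1/3 in each of the 6 libraries, and the amidating enzyme was far under all other members.

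**Figure D3:**
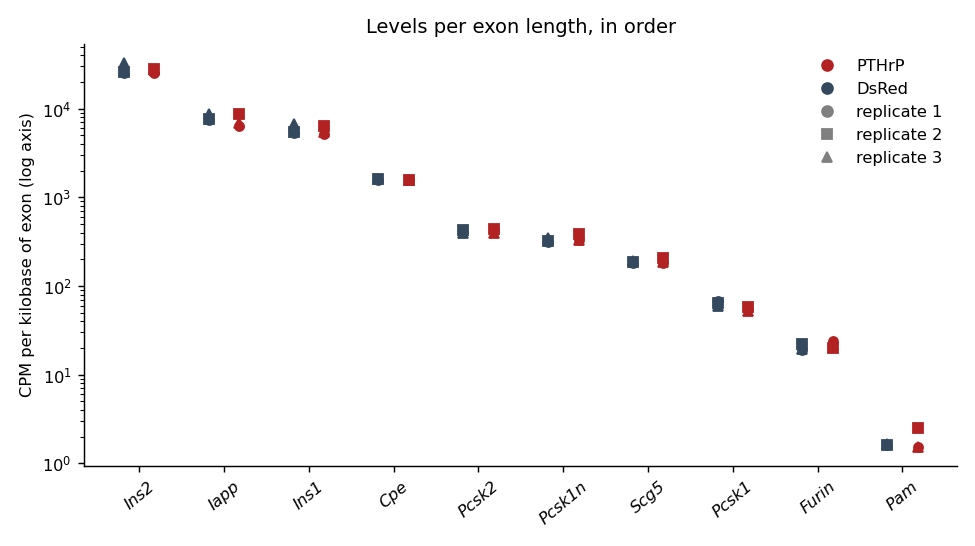
CPM per kilobase of exon (log axis) of the 10 genes in order of level, with 1 symbol per library, DsRed in dark and PTHrP in red. Ins2 is at the top with 25345 to 32528, Pam at the bottom with 1.53 to 2.53, and only Iapp and Ins1 overlap as neighbours.

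The 10 genes together took 5.34%, 6.16% and 5.72% of all counts in PTHrP replicates 1, 2 and 3 and 5.51%, 5.54% and 6.75% in the DsRed replicates. The widest 95% Wilson interval, that of DsRed replicate 3, ran from 6.75% to 6.76% and covers counting error only. Ins1 and Ins2 alone took 3.84% to 4.37% in PTHrP and 3.89% to 5.01% in DsRed. The order of the libraries by this share followed Ins2.

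Ratios of counts within a library do not depend on the scaling between libraries, and 6 were compared, chosen with earlier results of these libraries known. The counts are not corrected for length, so a ratio describes libraries and not relative levels. Pcsk1 counts per Pcsk2 count were 0.0949, 0.0943 and 0.0949 with PTHrP and 0.117, 0.108 and 0.106 with DsRed. These PTHrP values were nearly equal and all lay under the DsRed libraries. The difference in log2 ratio was -0.22, from -3.40 ± 0.00575 in PTHrP and -3.18 ± 0.0798 in DsRed (SD, n = 3; two-sided exact permutation p = 0.1 and 0.3 adjusted over the 6 ratios). With 3 libraries a side no smaller p than 0.1 is possible.

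Pcsk1n counts per Pcsk1 count, the inhibitor over its target, were 2.36, 2.61 and 2.44 in PTHrP and 1.79, 1.95 and 2.29 in DsRed. All PTHrP libraries lay above all DsRed libraries, with DsRed replicate 3 close to PTHrP replicate 1. The log2 difference was 0.30 (exact permutation test, p = 0.1, 0.3 adjusted) and ranged from 0.22 to 0.40 with 1 library left out. Both ratios contain Pcsk1, so they are not independent of its fold change or of each other.

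The other ratios overlapped between the groups. Ins1 counts per Ins2 count were 0.163, 0.182 and 0.163 with PTHrP and 0.171, 0.170 and 0.168 with DsRed, a log2 difference of -0.005 (exact permutation test, p = 1). The DsRed libraries were close to each other, although DsRed replicate 3 was high in both genes. For Iapp per insulin the log2 difference was -0.07 (p = 0.6), for Scg5 per Pcsk2 0.03 (p = 0.9) and for Cpe per insulin 0.02 (p = 0.8), all by the exact permutation test with adjusted p = 1.

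**Figure D4:**
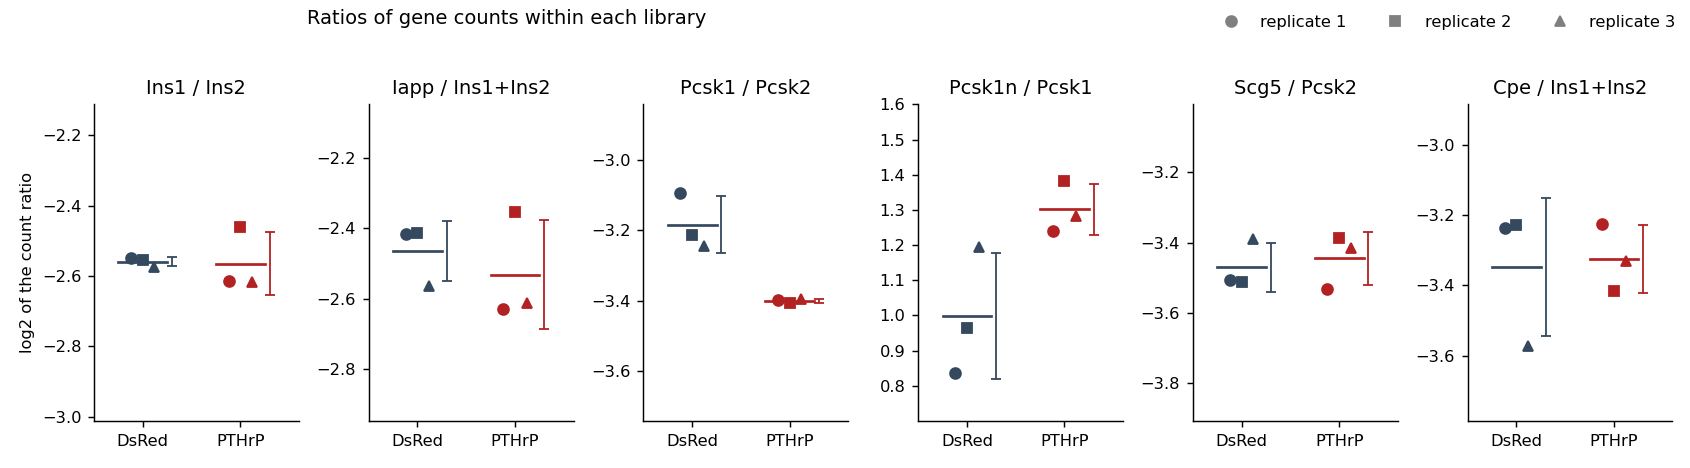
Log2 ratio of the counts of 2 genes within each library (vertical axes span the same width), with DsRed in dark, PTHrP in red, group means as lines and 1 SD as bars (n = 3). Pcsk1 over Pcsk2 lies at -3.41 to -3.40 in the PTHrP libraries, under the DsRed libraries at -3.24 to -3.09, and Pcsk1n over Pcsk1 lies higher in PTHrP.

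Other genes of the pathway were described from lists set by function. Of the 6 other convertases none passed (0 at an unadjusted p under 0.05, and 0 by DESeq2 and limma-voom), with a median log2 fold change of 0.09 and 4 positive. Mbtps1, the site 1 protease of the Golgi, had 0.10 and the ubiquitous convertase Pcsk7 0.09.

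Of 18 other peptide-trimming and peptide-degrading enzymes 17 were tested and none passed (0 also by DESeq2 and limma-voom), with a median of -0.03. At an unadjusted p under 0.05 there were 4, beside 8.90% of all tested genes. Dpp4, which inactivates incretins, had 226, 250 and 214 CPM in PTHrP and 255, 262 and 269 CPM in DsRed, and its log2 fold change was -0.19 (edgeR, adjusted p = 0.406). It passed only without PTHrP replicate 2, at -0.25 (adjusted p = 0.0241). The lysosomal protease Ctsh had -0.41 at under 5 CPM, and the carboxypeptidase Cpz -1.77 at under 0.3 CPM.

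The other substrates of the convertases, 31 prohormones and granins, held 21 tested genes, none of which passed (6 at an unadjusted p under 0.05, a level that 8.90% of all tested genes reached). Their median was 0.04, with 13 positive and 8 negative. Nucb2, the nesfatin precursor, had 33.8, 34.1 and 34.0 CPM in PTHrP and 46.4, 40.8 and 40.7 CPM in DsRed, and its log2 fold change was -0.33 (edgeR, adjusted p = 0.252). DESeq2 called Nucb2 alone of this list (adjusted p = 0.0291), limma-voom called none, and edgeR called it without PTHrP replicate 2 (adjusted p = 0.0453). Vgf, a neuropeptide precursor, had -0.30 (adjusted p = 0.370) and Cartpt, the CART precursor, -0.66 (adjusted p = 0.393).

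Of the 4 parts of amylin receptors none passed (0 also by DESeq2 and limma-voom). At an unadjusted p under 0.05 there was 1, beside 8.90% of all tested genes. Ramp3, the accessory protein, had 13.7, 13.1 and 12.3 CPM in PTHrP and 10.1, 10.5 and 10.2 CPM in DsRed, and its log2 fold change was 0.34 (edgeR, adjusted p = 0.352). Ramp1 (-0.46) and Ramp2 (0.16) had groups that overlapped, and Calcr, the calcitonin receptor that forms the core of these receptors, was at 0.0946 to 0.153 CPM in every library.

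The proton pump that acidifies the granule had 16 of 19 members with positive fold changes and a median of 0.08, against -0.01 over all genes. Genes of a list share libraries and scaling, so their signs are not independent. None of the pump genes passed (0 also by DESeq2 and limma-voom), and 1 had an unadjusted p under 0.05, beside 8.90% of all tested genes. The pump genes with the smallest p were Atp6v0b (0.15), Atp6v1h (0.10) and Atp6v1g2 (0.29). Of 6 genes of zinc and copper transport, the cofactors of insulin storage and of Cpe and Pam, 5 were negative with a median of -0.14. None of them passed (0 also by DESeq2 and limma-voom), and 2 had an unadjusted p under 0.05, beside 8.90% of all tested genes. The lowest p belonged to the zinc transporters Slc30a5 (-0.16) and Slc39a7 (-0.26) and the copper transporter Slc31a1 (-0.12).

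The 14 regulators of the insulin genes had a median of -0.01, and none passed (0 also by DESeq2 and limma-voom). At an unadjusted p under 0.05 there were 3, beside 8.90% of all tested genes. Neurod1 had 416, 417 and 392 CPM in PTHrP and 496, 468 and 460 CPM in DsRed, and its log2 fold change was -0.22 (edgeR, adjusted p = 0.303, and 0.0375 without PTHrP replicate 2). Creb1, the cAMP response factor, had -0.27 and Ptbp1, which binds and stabilises insulin mRNA, 0.22.

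**Figure D5:**
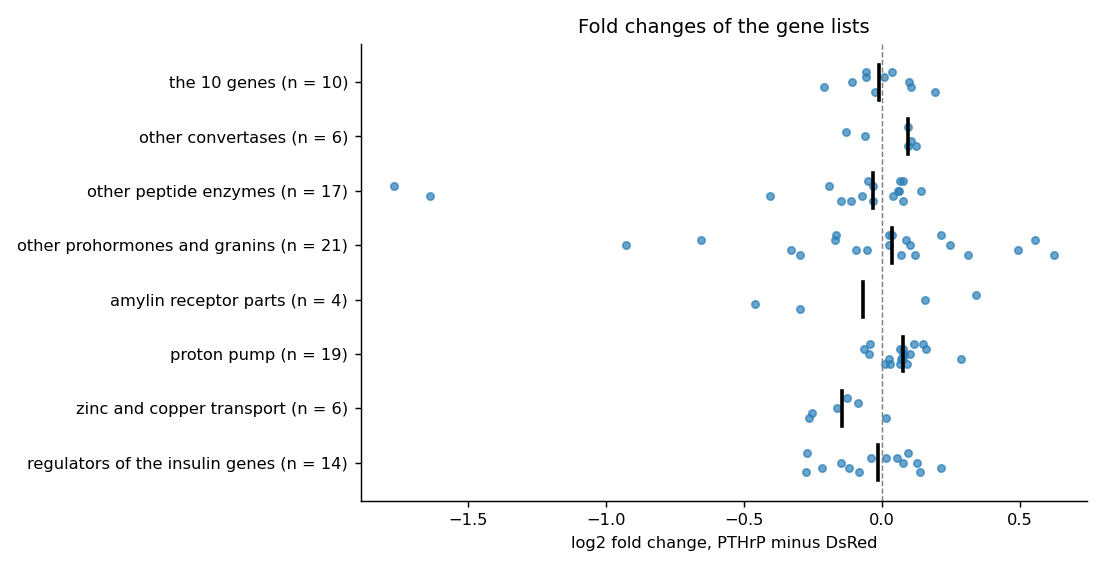
Log2 fold change of PTHrP minus DsRed (horizontal axis) for each tested gene (points) of the 10 genes and of the 7 lists around them, with black lines at the list medians. The medians lie between -0.14 and 0.09, and the points farthest from 0 belong to genes at low levels.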

How the data were processed

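The authors deposited raw counts per gene and library. Per the submitters' processing notes, bcl2fastq, STAR and Subread featureCounts 2.0.3 were used with the mouse build GRCm38. The labels give neither annotation, strand setting nor read length, which leaves opposite-strand overlaps uncertain. Groups and replicate numbers came from the library titles. No label says that replicates were separate cultures, and p-values then reflect only the spread among these libraries, possibly technical.

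Of 55774 rows, 287 repeated an identifier with identical counts and were dropped. Genes were kept with filterByExpr, scaled with TMM and tested in edgeR 4.0.16 (R 4.3.3, glmQLFit with robust dispersions, glmQLFTest, two-sided) on a group term, with Benjamini-Hochberg adjustment over all 21141 genes. SEs were derived from the coefficient and its F value, and the 95% intervals use them. Exon lengths, positions and transcripts came from GENCODE M21, and upstream sequences from RefSeq. Ratios and shares used unscaled counts. Log2 CPM for correlations carried a prior count of 2. Alternatives were DESeq2 1.42.0, limma-voom 3.58.1, RLE factors, library sizes alone, scaling without the 10 members, other filters, the replicate number as a term, and each library left out.

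The members, lists and ratios were chosen with earlier results of these data known. Named were Pthlh, the members, list genes past the threshold and the 3 with the smallest p of each list, exon overlap partners, markers, and the 3 genes most like Ins2 and Pcsk1. On simulated counts (20064 genes) edgeR called 15 unchanged genes and found 14% of those given a 1.25-fold change, 74% of those given 1.5-fold, 90% for 2-fold and 100% for 4-fold. Changes were planted only in genes above a minimum mean level, and no simulated library was set apart as PTHrP replicate 2 is. The planted changes also outnumbered the genes called in the real libraries, which eases the adjusted threshold. The shares found may therefore be higher than in the real libraries. Some list genes are not reported here.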

Additional observations from a re-analysis of the deposited data

How the results depend on the processing

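No member passed the threshold in any of 140 refits (10 members under 14 alternatives), and the lowest adjusted p was 0.0605. The 8 alternatives that kept all libraries changed no member's sign. Leaving out 1 library gave ranges of -0.141 to 0.0617 for Ins1, -0.120 to 0.0700 for Ins2, -0.0251 to 0.0411 for Pcsk2, -0.0283 to 0.0808 for Scg5 and -0.0867 to 0.315 for Pam, all of which cross 0; the sign changed without PTHrP replicate 1 (Ins1, 0.00724), without PTHrP replicate 2 (Pcsk2, Scg5 and Pam) and without DsRed replicate 3 (Ins1 and Ins2, and Pcsk2 at -0.0185). The log2 ratios ranged from -0.056 to 0.022 for Ins1 to Ins2, from -0.0036 to 0.068 for Scg5 to Pcsk2 and from -0.091 to 0.081 for Cpe to insulin, and the difference in the members' share of counts from -0.406 to 0.217 percentage points.

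The number of genes called, 9 in the fit reported, was 14 with library sizes alone, 220 with no filter on low counts, 136 with DESeq2 and 2 to 213 with 1 library left out (4, 213 and 14 without PTHrP replicates 1, 2 and 3 and 4, 2 and 17 without DsRed replicates 1, 2 and 3). Among the other substrates 2 passed with no filter, Nucb2 and Vgf, 1 with DESeq2, and 0 to 2 with 1 library left out. Among the peptide enzymes and the insulin gene regulators it was 0 to 1. The causes were not tested.

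With the replicate number as a block 7 genes were called, and the log2 fold change of Pcsk1 was -0.21 (edgeR, adjusted p = 0.508). The numbers share no stated batch: same-numbered libraries had correlations of their deviations of 0.171, -0.0617 and -0.0256, and PTHrP replicate 2 correlated best with DsRed replicate 3 (0.175). The block changed no member's call. With 3 libraries a group, the 95% intervals of all members but Pam still reach log2 values as low as -0.36 (Iapp) or as high as 0.28 (Furin).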

Other observations

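MIN6 cells carried several other prohormones at levels near those of the processing enzymes, and these genes were picked after their levels were seen. Npy, the neuropeptide Y precursor, had 3888 CPM per kilobase of exon in PTHrP and 4364 in DsRed, above Cpe. The granins Scg2 (2373 and 2184), Chga (1412 and 1344) and Chgb (721 and 747) followed. Gcg, the proglucagon gene of alpha cells, had 107 and 99.1 CPM per kilobase, while the delta cell hormone Sst had 0 to 12 counts and the PP cell hormone Ppy 0 to 10 counts in a library. Npy passed only without PTHrP replicate 2, at a log2 fold change of -0.24 (edgeR, adjusted p = 0.0389), against -0.17 (adjusted p = 0.540) with all 6 libraries.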
